A study of Rattus norvegicus with 20 samples.

Results

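The genes described here encode enzymes or enzyme subunits of the tricarboxylic acid (TCA) cycle, the isocitrate dehydrogenases and the cytosolic aconitase. The 9 genes are Cs, Aco1, Idh1, Idh2, Idh3a, Idh3b, Idh3g, Ogdh and Mdh2. They were chosen by gene symbol, matched to the array by Entrez ID, and are 9 of 14217 genes that the array measured. They were covered by 13 of 31039 probe sets tested. Where a gene had several probe sets the brightest on average is described, and the 4 remaining probe sets served as a check. The livers came from 20 male Sprague-Dawley rats, with 1 Affymetrix Rat Genome GeneChip hybridized for each. The rats were bought at 4 weeks of age and fed for 21 days, in groups of 5, on tofu and fish oil (TF), tofu and soybean oil (TS), casein and fish oil (CF) or casein and soybean oil (CS). All diets held 200 g/kg of protein and 150 g/kg of fat, and in the TF and CF diets 50 g/kg of the fat was fish oil. The tofu diets also held added casein, and the rats of each group that ate most and least were not put on arrays, according to the methods. Protein source and oil source were therefore each compared between 10 rats and 10 rats.

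In the TCA cycle, citrate synthase (Cs) joins acetyl-CoA to oxaloacetate, an aconitase turns citrate into isocitrate, and the NAD-dependent isocitrate dehydrogenase of Idh3a, Idh3b and Idh3g oxidizes isocitrate to 2-oxoglutarate. The 2-oxoglutarate dehydrogenase complex, whose first component is encoded by Ogdh, and mitochondrial malate dehydrogenase (Mdh2) act further round the cycle. Idh1, in the cytosol and peroxisomes, and Idh2, in mitochondria, carry out the isocitrate reaction with NADP and yield NADPH, which the liver uses for lipid synthesis and redox defence. Aco1 encodes the cytosolic aconitase, which without its iron-sulfur cluster is the iron regulatory protein IRP1. In liver the cycle burns acetyl-CoA from fatty acids and carbohydrate, and it supplies citrate to the cytosol for lipogenesis.

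Promoters, as 250 bases before and 50 after the start of the gene, were found in RefSeq for 8 of the 9 genes. Those of Aco1 and Idh2 are shown because these genes gave the largest oil and protein differences among the 9. Capitals mark GC boxes, GGGCGG or CCGCCC on the other strand. The Aco1 promoter lies at chr5:60055645-60055944 on the plus strand and the Idh2 promoter at chr1:143467199-143467498 on the minus strand, both in GRCr8 and written 5′ to 3′ along the gene.
Aco1: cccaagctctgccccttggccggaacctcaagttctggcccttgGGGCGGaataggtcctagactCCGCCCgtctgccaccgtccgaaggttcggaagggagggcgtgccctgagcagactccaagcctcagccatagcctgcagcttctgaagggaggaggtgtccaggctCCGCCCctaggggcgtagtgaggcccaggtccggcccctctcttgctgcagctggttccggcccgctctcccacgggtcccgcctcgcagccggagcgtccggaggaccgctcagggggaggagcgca
Idh2: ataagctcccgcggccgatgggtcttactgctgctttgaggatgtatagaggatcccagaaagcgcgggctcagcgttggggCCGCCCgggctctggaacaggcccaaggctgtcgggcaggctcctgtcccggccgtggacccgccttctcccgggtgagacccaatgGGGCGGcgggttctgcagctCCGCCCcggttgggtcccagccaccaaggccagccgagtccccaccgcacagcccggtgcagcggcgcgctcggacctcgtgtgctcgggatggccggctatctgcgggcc
Each of these windows held 3 GC boxes, and 34.9% of 27457 rat promoters of the same length held at least 1. Cs and Idh1 had 2 each and Ogdh and Mdh2 had 1 each. The nuclear receptor core motif AGGTCA, which reads TGACCT on the other strand and is present in 15.7% of promoters, was found in the window of Idh3g alone among the 8. The direct repeat of AGGTCA with 1 base between the copies, which contains that core and is the form bound by PPARα and its partner RXR, was in none of the 8 and in 0.0583% of all promoters. Such matches describe letters in a window.

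Each value is a log-scale z score, standardized within its array, and by the methods a step of 0.2 is 1.41-fold. A z score compares rats for 1 probe set, and levels of different genes are not set against each other. An effect was called in limma when its p, adjusted by Benjamini-Hochberg across the whole array, was under 0.05. In bulk liver, fewer cells of a type and less RNA per cell cannot be told apart. Array medians lay between -0.10 and 0.02, and the mean correlation of an array with the rest was 0.939 to 0.956. In 1 rat of each diet (TF-3, TS-1, CF-1 and CS-1) the 5′ β-actin control probe set was at 1.30 to 1.42, against 1.86 to 2.13 in the other 16. All 5 measured hepatocyte markers were high, with a mean z of 3.15 to 3.42 per rat, while the 3 lymphocyte markers all averaged below 0.

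None of the 9 genes was called for protein source, oil source or their interaction. Of all probe sets, 0.557% were called for protein and 0.193% for oil, and 0% for the interaction, where 3.43% had an unadjusted p under 0.05 and 0 of the 9 genes did. At that unadjusted level 1 of the 9 genes (Idh2) passed for protein, where 10.2% of all probe sets did, and 2 of the 9 (Aco1 and Idh1) passed for oil, where 5.55% did. The median difference of the 9 genes was 0.02 for tofu over casein, against 0.01 over all probe sets, and 0.03 for fish oil over soybean oil, against 0.00 over all probe sets. No gene differed by 0.2 in either main effect, and the 95% intervals of both effects over the 9 genes lay between -0.14 and 0.26. These bounds correspond to 1.27-fold lower and 1.58-fold higher. None of the 9 was called between any 2 diets either. Called probe sets made up 0.457% for TF over CS, 0.0709% for TS over CS, 0.0451% for CF over CS, 0.0677% for TF over CF, 0.0677% for TF over TS and 0.151% for TS over CF. At an unadjusted p under 0.05 the 9 genes gave 3 for TF over CS (9.66% of all probe sets), 0 for TS over CS (7.15%), 2 for CF over CS (3.52%), 1 for TF over CF (6.9%), 1 for TF over TS (5.83%) and 2 for TS over CF (6.4%). These comparisons share groups, and the called shares moved with single rats and with the fit. The 0.0451% for CF over CS was 14 probe sets, which became 6 to 22 without each rat and 0 in limma with only CF and CS fitted (1445 at an unadjusted p under 0.05). The plot of both effects shows Aco1 apart for oil and Idh2 apart for protein.

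**Figure D1:**
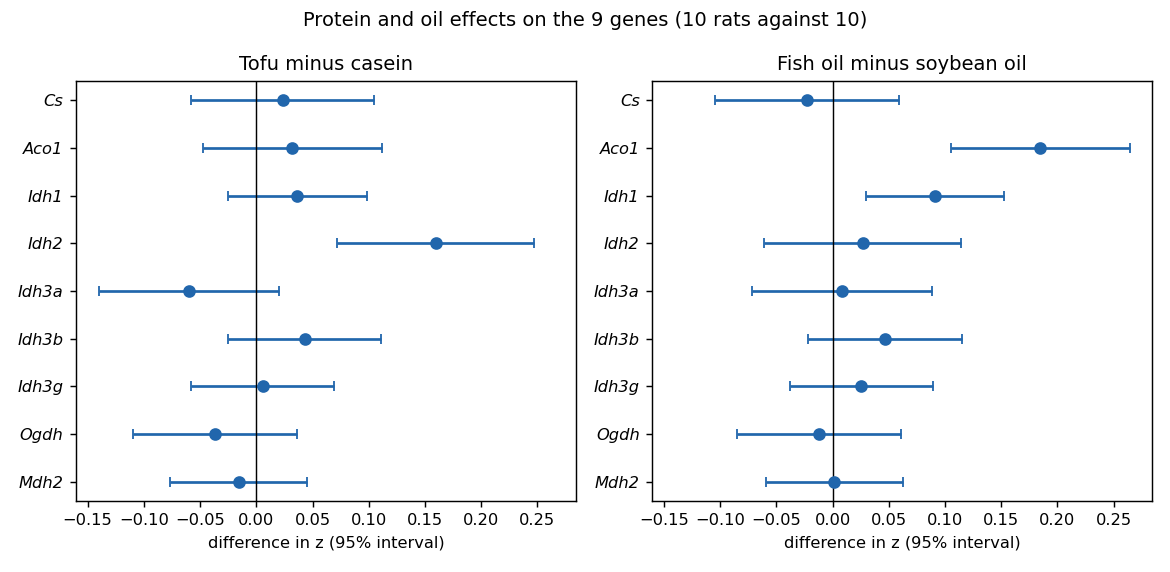
Differences in z of the 9 genes, tofu minus casein (left) and fish oil minus soybean oil (right), as points with 95% intervals from limma, 10 rats against 10. The intervals of Idh2 for protein and of Aco1 and Idh1 for oil do not include 0, and the others do.

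Aco1 (probe set 1386916_at), the cytosolic aconitase, gave the largest oil difference of the 9. Its z scores were 1.92, 2.01, 1.77, 1.79 and 1.76 in TF rats and 1.78, 1.77, 1.91, 1.96 and 1.78 in CF rats. In soybean oil rats they were 1.75, 1.59, 1.69, 1.74 and 1.68 in the TS group and 1.68, 1.67, 1.64, 1.56 and 1.62 in the CS group. All 10 fish oil rats thus stood above all 10 soybean oil rats, which was so for 0.0805% of probe sets. TF-4 and CF-6 were highest and CS-6 lowest, and the gap between the oils was narrow, from 1.76 in TF-7 to 1.75 in TS-1. The difference was 0.18 ± 0.04 (SE), or 1.38-fold (95% interval 1.20 to 1.58). Its adjusted p was 0.0561 in limma, just short of the threshold, at rank 61 of 31039. An exact two-sided permutation test within protein source, run for each of the 9 genes, gave Aco1 an unadjusted p of 3.1e-05. This is the smallest p that its 63504 arrangements allow, and any gene without overlap between the oils would reach it.

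The Aco1 call turned on the setting. The adjusted p was 0.0329 after quantile normalization, 0.0255 after scaling of the arrays, 0.0130 among probe sets with a mean above 0, 0.0181 with a variance trend and 0.0263 at gene level. It was 0.0602 without moderation of the variance, 0.0713 with array weights and 0.337 with the rat number as a block. Leaving out each rat in turn gave 0.0490 to 0.141, under the threshold only without TF-7. It was 0.196 without the 4 arrays of low 5′ β-actin and 0.188 without the 3 least correlated arrays, with differences of 0.20 and 0.17. Markers of stellate cells and of Kupffer cells averaged lower on fish oil, with 7 of 7 and 6 of 6 oil differences below 0, medians of -0.09 and -0.07 and 0 called. The same held for 3 of 3 red blood cell markers, with a median of -0.07 and 0 called. Their mean ran from 1.0 to 1.26 in TF and 1.03 to 1.19 in CF rats, and from 1.19 to 1.36 in TS and 1.03 to 1.23 in CS rats. For the stellate markers the mean ran from 0.81 to 0.92 in TF and 0.78 to 0.91 in CF rats, and from 0.91 to 1.0 in TS and 0.85 to 0.96 in CS rats. The part of these markers in the Aco1 difference was not tested.

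Aco1 averaged higher with fish oil on either protein. On tofu, TF averaged 1.85 ± 0.11 and TS 1.69 ± 0.07, and on casein, CF averaged 1.84 ± 0.09 and CS 1.63 ± 0.05 (SD, n = 5 each). The differences were 0.16 (adjusted p = 0.647, limma) for TF over TS and 0.21 (adjusted p = 0.474) for CF over CS, and neither pair of groups overlapped. Higher without overlap was the state of 0.432% of probe sets in TF over TS and 0.535% in CF over CS. The difference between these oil effects was -0.05 (95% interval -0.21 to 0.11). Protein source left a difference of 0.03 (95% interval -0.05 to 0.11), with an adjusted p of 0.833. The order of the diets was TF, CF, TS, CS, in which TF and CF differed by 0.01 and TS and CS by 0.06, both with overlap, while TS and CF did not overlap, as was so for 1.56% of probe sets in either direction. TF exceeded CS by 0.22 (adjusted p = 0.0918), without overlap, as did 1.3% of probe sets. This contrast passed at an adjusted p under 0.05 after scaling of the arrays. It did not after quantile normalization, with the rat number as a block, with only 2 groups fitted or without each rat. The other settings were not examined for Aco1 in this contrast.

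**Figure D2:**
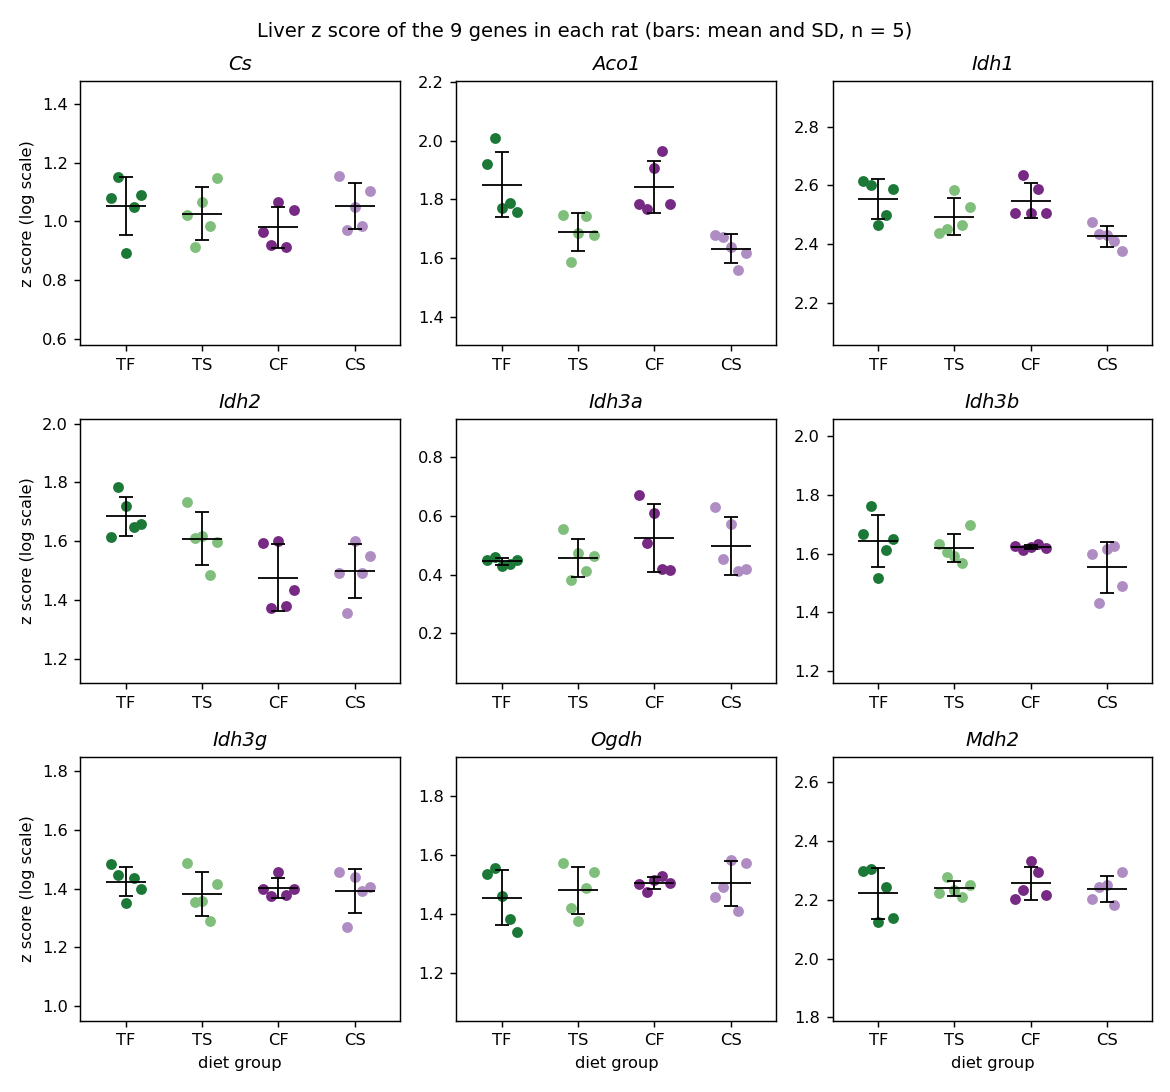
z score of each gene in each rat, with groups TF, TS, CF and CS from left to right, 5 points per group, and bars for the mean and SD. Panels span the same range of z but start at different levels. Aco1 was above 1.75 in every TF and CF rat and below it in every TS and CS rat, and the other genes overlapped between the oils.

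Idh1 (1369954_at), the cytosolic NADP-dependent enzyme, also averaged higher on fish oil, by a smaller step. Its z scores were 2.62, 2.60, 2.46, 2.50 and 2.59 in TF rats and 2.50, 2.64, 2.51, 2.59 and 2.51 in CF rats. In TS rats they were 2.44, 2.45, 2.59, 2.46 and 2.53, and in CS rats 2.48, 2.43, 2.43, 2.41 and 2.38. The CF and CS rats did not overlap, and higher without overlap was the state of 0.535% of probe sets in CF over CS. The TF and TS rats did overlap, with TS-4 at 2.59 above TF-5 and TF-6 at 2.46 and 2.50. The oil difference was 0.09 ± 0.03 (SE), 1.17-fold, with an adjusted p of 0.579 in limma and an exact permutation p of 0.00356, unadjusted. CF exceeded CS by 0.12 (95% interval 0.04 to 0.21, adjusted p = 0.99997, limma). TF exceeded TS by 0.06 (95% interval -0.03 to 0.15, adjusted p = 0.950). The weaker Idh1 probe set, 1394886_at, averaged below 0 in every diet with SDs of 0.23 to 0.57 and gave an oil difference of -0.03 and an SE of 0.20.

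Idh2 (1388403_at), the mitochondrial NADP-dependent enzyme, gave the largest protein difference of the 9. Its z scores were 1.61, 1.78, 1.72, 1.65 and 1.66 in TF rats and 1.73, 1.61, 1.62, 1.48 and 1.60 in TS rats. In CF rats they were 1.59, 1.37, 1.60, 1.38 and 1.43, and in CS rats 1.49, 1.36, 1.60, 1.49 and 1.55. The protein sources overlapped, since TS-5 was at 1.48 and CF-1, CF-5 and CS-5 were near 1.60. TF averaged 1.68 ± 0.07, TS 1.61 ± 0.09, CF 1.48 ± 0.11 and CS 1.50 ± 0.09 (SD, n = 5 each). The protein difference was 0.16 ± 0.04 (SE), or 1.32-fold (95% interval 1.13 to 1.53), with 9 of 10 tofu rats above the casein mean. Its adjusted p was 0.106 in limma, at rank 343, and the exact permutation p was 0.00142, unadjusted. Among probe sets with a mean above 0 the adjusted p was 0.0339, and under no other setting tried was Idh2 called.

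Both TF-over-CF and TF-over-CS were without overlap for Idh2, with differences of 0.21 (adjusted p = 0.382) and 0.19 (adjusted p = 0.238). Higher without overlap described 0.699% and 1.3% of probe sets in those comparisons. TS over CS was 0.11 (95% interval -0.01 to 0.23), with overlap. The oil difference of Idh2 was 0.03 (95% interval -0.06 to 0.11). The mean of 6 pericentral hepatocyte markers also stood higher on tofu. It ran from 1.54 to 1.68 in TF and 1.41 to 1.61 in TS rats, and from 1.16 to 1.31 in CF and 1.12 to 1.40 in CS rats. Of these markers 3 were called higher on tofu, as were 0.3% of all probe sets (Cyp1a2 by 0.43, Oat by 0.42 and Slc1a2 by 0.34). Slc1a2 was near 0, at 0.18 in TF, 0.09 in TS, -0.19 in CF and -0.22 in CS rats. Glul and Cyp2e1 stood 0.15 and 0.20 higher without a call, and Lgr5 was below 0 in every diet. Of 7 periportal hepatocyte markers 0 were called for protein. Their protein differences ran from -0.11 to 0.41 with a median of 0.04, and 4 were above 0 and 3 below. Slc4a1, 1 of 3 red blood cell markers, was called higher on tofu by 0.25, and 0 of the other hepatocyte, macrophage, stellate, endothelial, bile duct and lymphocyte markers were called. Without a call, 5 of 5 endothelial and 6 of 6 Kupffer cell markers nevertheless had protein differences above 0, with medians of 0.07 and 0.05. The nearest to a call was Stab2, a scavenger receptor of sinusoidal endothelium, with 0.13 (adjusted p = 0.0635, limma). The mean of the endothelial markers ran from 1.09 to 1.20 in TF and 1.11 to 1.23 in TS rats, and from 1.02 to 1.11 in CF and 1.0 to 1.12 in CS rats. The part of these markers in the Idh2 difference was not tested.

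The 3 subunits of the NAD-dependent enzyme showed no effect of either diet factor that could be told from the spread. Idh3a, the catalytic subunit, lay between 0.43 and 0.46 in all 5 TF rats, while TS rats ran from 0.38 to 0.55, CF rats from 0.41 to 0.67 and CS rats from 0.41 to 0.63. Idh3b, a regulatory subunit, ran from 1.52 to 1.76 in TF, from 1.57 to 1.70 in TS, from 1.61 to 1.63 in CF and from 1.43 to 1.63 in CS rats. Idh3g, the other regulatory subunit, averaged 1.42 ± 0.05 in TF, 1.38 ± 0.07 in TS, 1.40 ± 0.03 in CF and 1.39 ± 0.07 in CS rats (SD, n = 5 each). The groups overlapped in every pair. Protein differences were -0.06, 0.04 and 0.01 for Idh3a, Idh3b and Idh3g, and oil differences were 0.01, 0.05 and 0.03, with adjusted p of 0.642 or more. Their 95% intervals allowed 1.27-fold lower to 1.22-fold higher.

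Within groups, the rats with a low 5′ β-actin value stood out for 2 of these subunits. Idh3a was at 0.55 in TS-1, 0.67 in CF-1 and 0.63 in CS-1, the highest value of each of those groups, and at 0.45 in TF-3. Idh3g was highest of its group in TF-3, TS-1 and CS-1, at 1.48, 1.49 and 1.46. Idh3b was highest of its group in none of the 4. Each diet held 1 such rat, and whether the control value bears on these genes was not tested.

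Cs, Ogdh and Mdh2 likewise showed no difference between diets beyond the spread of the rats. Cs averaged 1.05 ± 0.10 in TF, 1.03 ± 0.09 in TS, 0.98 ± 0.07 in CF and 1.05 ± 0.08 in CS rats. Its other 3 probe sets gave group means within 0.91 to 0.97 (1369967_at), 0.34 to 0.41 (1384201_at) and -0.18 to 0.10 (1396453_at), and none was called for either factor. Ogdh averaged 1.45 ± 0.09 in TF, 1.48 ± 0.08 in TS, 1.51 ± 0.02 in CF and 1.50 ± 0.08 in CS rats. Mdh2 averaged 2.22 ± 0.09 in TF, 2.24 ± 0.03 in TS, 2.26 ± 0.06 in CF and 2.24 ± 0.04 in CS rats (SD, n = 5 each). The group means of Mdh2 spanned only 0.03, the least of the 9 genes. Over Cs, Ogdh, Mdh2 and the 3 Idh3 genes together, the adjusted p was 0.642 or more for both factors.

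Across rats, the 9 genes mostly deviated from their diet means in the same direction. Of 36 gene pairs, 33 had a Pearson r above 0 over the deviations of 20 rats, with a median of 0.32. The strongest pair was Idh3b and Idh3g (r = 0.65), subunits of the same enzyme, followed by Idh2 and Idh3g (0.62) and Cs and Idh3g (0.61). The lowest was Idh1 with Idh2 (r = -0.35), the NADP-dependent enzymes of cytosol and mitochondria. All points share 1 array per rat, so array-wide shifts enter every pair, and the values are a description.

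**Figure D3:**
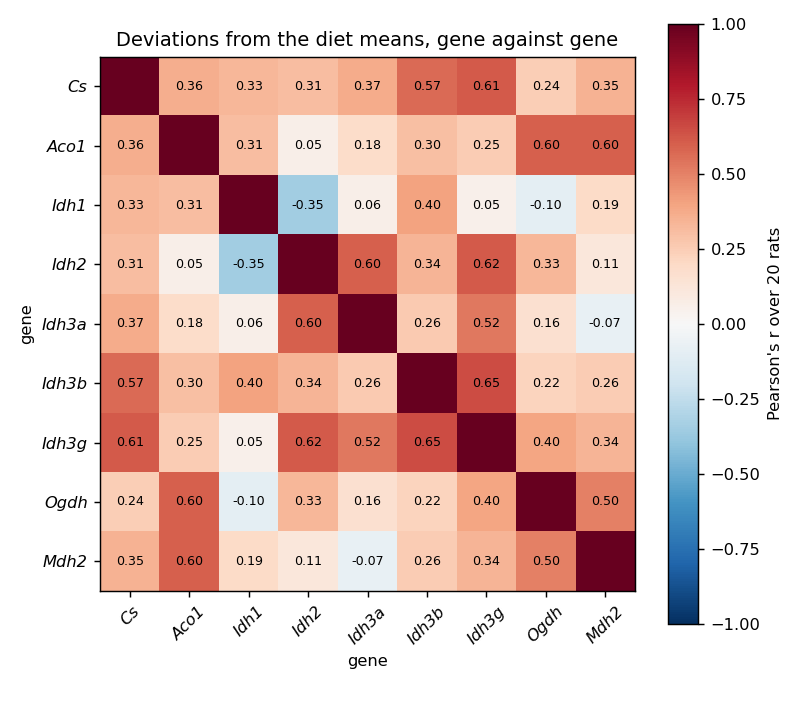
Pearson's r between the genes over the deviations of 20 rats from their diet means, from -1 (blue) to 1 (red). Most cells are above 0, the Idh3b and Idh3g cell is the highest at 0.65, and the Idh1 and Idh2 cell is the lowest at -0.35.

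The genes whose levels over the 20 rats were most like each of the 9 were sought among 9219 genes with a mean above 0. For Aco1 they were Ehhadh (r = 0.89), the peroxisomal bifunctional enzyme of fatty acid oxidation, and Hsdl2 (r = 0.88), a dehydrogenase of peroxisomes. For Idh1 they were Caprin1 (r = 0.80), an RNA-binding protein, and Ppm1k (r = 0.79), the phosphatase of branched-chain ketoacid dehydrogenase. For Idh2 they were Siae and Bcam (both r = 0.85). For Cs they were Zbtb22 and Zfp688, for Idh3a Chchd7 and Ndufa4, for Idh3b Wdr11 and Lamp1, for Idh3g Capns1 and Urod, for Ogdh Ncln and Rcc2, and for Mdh2 the phosphate carrier Slc25a3 and Tmem51, with r between 0.78 and 0.86. Over deviations from diet means the r of Aco1 was 0.69 with Ehhadh and 0.74 with Hsdl2. By ranks, Spearman's rho was 0.51 for Idh3b with Lamp1, against a Pearson r of 0.86. It was 0.71 or more for every other pair.

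Known targets of PPARα, the fatty acid receptor, were described beside Aco1 because Ehhadh is one. Of 12 measured, 7 were called higher on fish oil, as were 0.177% of all probe sets, and 0 lower, with a median difference of 0.21 over the list. Ehhadh averaged 2.40 ± 0.18 in TF and 2.33 ± 0.12 in CF rats, and 1.89 ± 0.16 in TS and 1.81 ± 0.11 in CS rats (SD, n = 5 each). This was 2.44-fold with an adjusted p of 0.000317 in limma, against 1.38-fold for Aco1. The other 6 were Cyp4a1, a fatty acid hydroxylase (0.53), the thioesterases Acot1 (2.31) and Acot2 (0.60), the pantetheinase Vnn1 (0.70), and Hadha (0.19) and Hadhb (0.22), the subunits of the mitochondrial trifunctional protein, each value an oil difference in z.

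Other enzymes of the cycle were not called either. Of 10 measured (3 succinyl-CoA ligase subunits, 4 succinate dehydrogenase subunits, Dlst, Dld and Mdh1), 0 were called for protein or oil, and median differences were 0.03 and 0.01. Suclg2, the GTP-forming subunit of succinyl-CoA ligase, came closest for protein, with a difference of 0.12 (adjusted p = 0.0661, limma). Suclg1, the shared subunit, came closest for oil, also with 0.12 (adjusted p = 0.465). Of 13 genes for mitochondrial content, such as Vdac1 and Tfam, 0 were called, with median differences of 0.01 for protein and 0.03 for oil. Neither were any of 12 genes that feed or drain the cycle, such as Pc and Glud1, with medians of 0.05 for protein and 0.02 for oil, nor the 2 genes measured for handling of 2-hydroxyglutarate. The nearest to a call in these lists were Lonp1, a mitochondrial protease (0.06), Pcca of propionyl-CoA carboxylase (0.12) and Adhfe1 (0.10) for protein, and the chaperone Hspd1 (0.07), the glutaminase Gls2 (0.10) and D2hgdh (0.06) for oil, with adjusted p of 0.269 or more.

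Entry to the cycle and exit from it did include called genes. Lower calls on tofu made up 0.258% of all probe sets. Among 9 genes of pyruvate dehydrogenase and its regulators, 1 was called. This was Pdk4, a kinase that turns pyruvate dehydrogenase off, at 1.24 ± 0.21 in TF and 1.30 ± 0.06 in TS rats, against 1.92 ± 0.25 in CF and 1.71 ± 0.23 in CS rats. It was 2.59-fold lower on tofu, with an adjusted p of 0.00422 in limma. For oil the kinase Pdk3 came closest, with a difference of -0.16 (adjusted p = 0.592). Acly, which splits exported citrate to acetyl-CoA for lipid synthesis, was 2.13-fold lower on tofu (adjusted p = 0.000161). It stood at 1.95 ± 0.16 in TF and 2.22 ± 0.10 in TS rats, against 2.47 ± 0.10 in CF and 2.57 ± 0.08 in CS rats (SD, n = 5 each). The citrate carrier Slc25a1 differed by -0.13 on tofu, with an adjusted p of 0.0720. Slc25a20, the carnitine carrier of mitochondria, rose by 0.21 on fish oil (adjusted p = 0.00608), the only 1 of 9 genes for citrate export and carriers to be called for oil.

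Some genes for other sources of NADPH fell on tofu. Of 7 measured, 3 were called lower and 0 higher. Me1, the malic enzyme of the cytosol, was 2.43-fold lower on tofu (adjusted p = 0.00422), Pgd of the pentose phosphate pathway 1.46-fold lower (adjusted p = 0.0138) and Aldh1l2, a mitochondrial folate enzyme, 1.23-fold lower (adjusted p = 0.0373). The 95% intervals of the tofu difference were -0.03 to 0.10 for Idh1 and 0.07 to 0.25 for Idh2, against -0.68 to -0.34 for Me1. The differences between these genes were not tested.

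**Figure D4:**
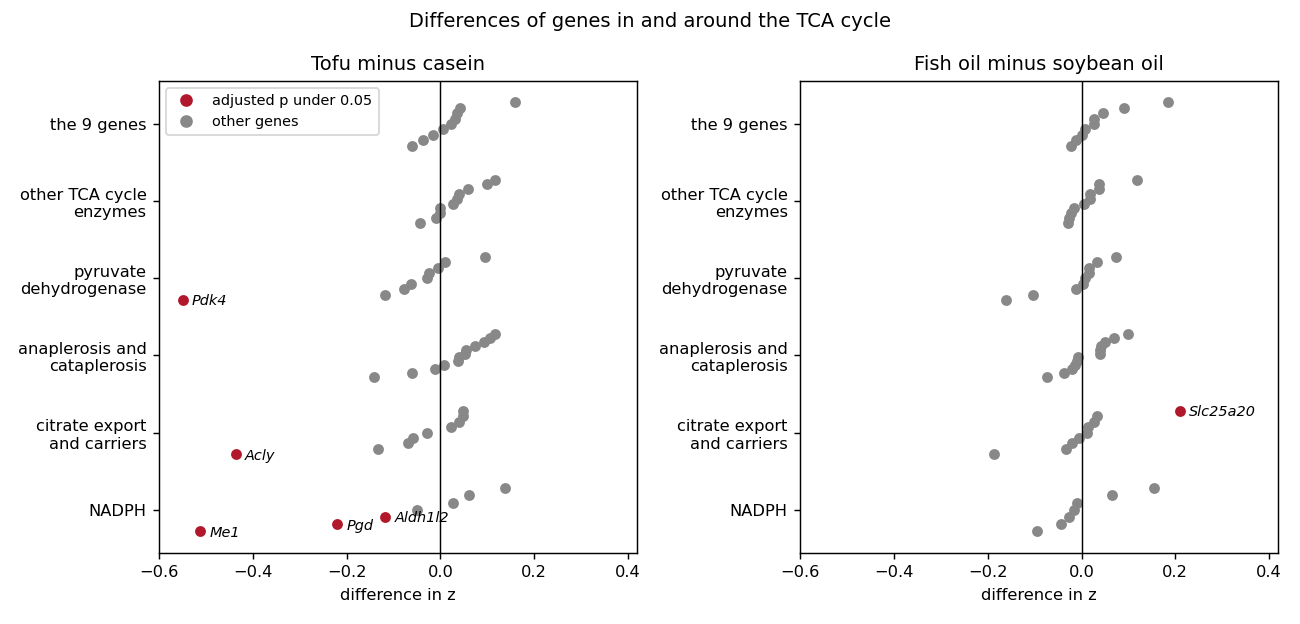
Difference in z of each gene in and around the cycle, 1 point per gene, tofu minus casein (left) and fish oil minus soybean oil (right), with red for an adjusted p under 0.05 in limma. No point is red among the 9 genes, other enzymes of the cycle or anaplerosis and cataplerosis, and the red points are Pdk4, Acly, Me1, Pgd and Aldh1l2, all below 0 on tofu, and Slc25a20, above 0 on fish oil.

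Since Aco1 is also IRP1, 6 of 8 listed genes of iron handling were described. The ferritin genes Fth1 and Ftl1 had no probe set assigned to them alone. Hamp, the iron hormone hepcidin, was lower on tofu by 1.48 in z (adjusted p = 0.0110, limma), at -0.05 ± 0.20 in TF and -0.03 ± 0.13 in TS rats, against 1.41 ± 0.85 in CF and 1.48 ± 0.92 in CS rats. The casein groups varied widely, and the tofu groups lay near the median of their arrays. Tfrc, the transferrin receptor, stood 0.59 higher on tofu without a call (adjusted p = 0.126). For oil, 0 of the 6 were called. A link of these genes to Aco1, whose protein difference was 0.03, was not tested.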

How the data were processed

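Liver RNA of 20 rats was measured on 1 array each. Normalization was by the authors through SuperNORM, and the deposited unit is a z score per probe set and array (log scale). The treatment of background is not given in the sources used here. A z score does not keep the absolute signal, and the number of arrays limits the precision. Of 31099 probe sets, 57 controls were dropped, 63 single values were missing, and 31039 had 3 or more values per group and entered the tests. Of these 20825 had 1 gene symbol (20757 updated by gene identifier), and only those are named.

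Group means were fitted to all 20 arrays without covariates in limma 3.58.1 (R 4.3.3), with variance moderation and Benjamini-Hochberg adjustment over all probe sets. On simulated data, 20 of 67 oil effects of 0.2 in z were called, 56 of 67 of 0.4 and 64 of 66 of 0.8. False calls numbered 17, with 31039 probe sets simulated in all. The simulated noise was drawn independently for each value, so shifts shared across an array were not part of it. The SE of the oil effect was 0.03 to 0.04 for the 9 genes and 0.05 at the median of all probe sets. The methods' analysis of variance over single array cells was not run, for want of cell signals here. Exact permutation tests used scipy 1.17.1. The 9 genes and all gene lists were chosen with earlier results of these data known. Named from each other list were the genes called for protein or oil, otherwise the gene with the largest t (for cell type markers only called genes, the pericentral list and whole-list values are printed), and for each of the 9 genes the 2 most correlated. Glul, Lgr5, Slc25a1 and Stab2 were named after their values were seen. Promoters came from RefSeq (GRCr8). Alternatives were quantile normalization, scaling to 1 median and interquartile range, probe sets with a mean above 0, the rat number as a block, array weights, no moderation, a robust variance trend, the mean of a gene's probe sets, fits of only 2 groups and leaving out each rat. Leaving out the 4 arrays with low 5′ β-actin or the 3 least correlated was added after seeing the data.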

Additional observations from a re-analysis of the deposited data

How the results depend on the processing

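The count of the 9 genes called was 0 in each setting examined, with these exceptions. It was 1 for oil (Aco1) under quantile normalization, scaling, the filter on a mean above 0, the variance trend and the gene mean, 1 for protein (Idh2) under the filter, and 1 for TF over CS (Aco1) under scaling. Leaving out each rat gave 0 to 1 for oil, with 1 only without TF-7, and 0 elsewhere. Over all probe sets, protein calls numbered 173, with 357 under the filter, 289 with the variance trend, 91 with the rat number as a block, 72 without the 4 arrays of low 5′ β-actin and 74 without the 3 least correlated arrays. They ranged from 114 to 164 without each rat, with the lowest without CS-2. Oil calls numbered 60, with 27 under the block, 34 without the 3 least correlated arrays and 46 to 60 without each rat. Between diets, calls numbered 142 for TF over CS, 22 for TS over CS, 14 for CF over CS, 21 for TF over CF, 21 for TF over TS and 47 for TS over CF. Without each rat these were 81 to 142 (lowest without TF-6), 11 to 26 (TS-4), 6 to 22 (CF-5, CF-6, CS-6 and CS-7), 9 to 25 (TF-6 and TF-7), 13 to 24 (TF-3) and 34 to 53 (CF-5 and TS-7), in the same order. Falls by over 1.5 times also came without TF-7, CS-2 and CS-7 for TF over CS, without all other TS and CS rats except TS-5 and CS-6 for TS over CS, without CF-7 and CS-5 for CF over CS, and without TF-5, CF-1 and CF-2 for TF over CF. The CF over CS count was highest without CF-1. With only the groups compared in the fit, calls numbered 66, 12, 0, 6, 10 and 25, the 0 in limma for CF over CS with 1445 at an unadjusted p under 0.05, and under the filter they numbered 299, 49, 29, 54, 28 and 100. With the block they were 43 for TF over CS, 6 for CF over CS, 11 for TF over CF and 4 for TF over TS, and with the variance trend 227 for TF over CS, 24 for CF over CS and 38 for TF over CF. CF over CS gave 8 without moderation and 27 with array weights, which gave 32 for TF over CF. Without the low 5′ β-actin arrays, TF over CS gave 83, TS over CS 5 and TF over CF 7, and without the 3 least correlated arrays TF over CS gave 78, TS over CS 9 and TF over TS 12. The other counts stayed within 1.5 times. The cause was not tested.

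Pairing by rat number was not settled, with median r of deviations of 0.04 in 22 same-numbered pairs and -0.01 in 128 others. With the block, 0 of the 9 genes were called, Aco1 had an oil difference of 0.17 (adjusted p = 0.337, limma) and Idh2 a protein difference of 0.15 (adjusted p = 0.258). The block turned the protein difference of Cs (-0.012), Aco1 (-0.0032) and Idh3g (-0.0041) and the oil difference of Mdh2 (-0.014).

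Other small differences changed sign, none of them called. For Cs, protein was -0.024 for the gene mean, -0.035 for 1384201_at and -0.13 for 1396453_at, and oil was 0.0026 without the 3 least correlated arrays and 0.019 for 1384201_at. For Idh3g, protein was -0.0085 with quantile normalization, -0.0073 without the low 5′ β-actin arrays and -0.0098 to 0.017 without each rat. For oil, Idh1 was -0.026 for 1394886_at, Ogdh 0.0028 with scaling and -0.025 to 0.0027 without each rat, and Idh3a -0.010 to 0.025 without each rat. Mdh2 for oil was -0.0088 with quantile normalization, -0.0038 with array weights, -0.0071 without the low 5′ β-actin arrays and -0.0086 to 0.014 without each rat.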
